A study of Mus musculus with 3 samples.

Results

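Leydig cells, the androgen-producing cells between the seminiferous tubules of the testis, were examined here where they carried most kallikrein RNA. Among all 25502 cell barcodes of 3 mouse testis libraries, 5591 were taken as Leydig cells. They had at least 2000 UMIs (unique molecular identifiers, 1 for each captured RNA molecule), at most 20% mitochondrial UMIs and at least 0.5% of UMIs from the steroid enzyme genes Cyp11a1, Cyp17a1 and Hsd3b6. Cells with any UMI of the leukocyte gene Ptprc, with 3 or more UMIs of the division genes Mki67 and Top2a, or with both Cpz and Tnnt2 were left out. The 5591 cells of the 3 libraries were ranked together by the summed UMIs of Klk1b21, Klk1b22, Klk1b24 and Klk1b27 per 10000 UMIs of the cell. The highest-scoring 1 in 3, 1864 cells, were chosen by this score and are called kallikrein-high, and the remaining 3727 are called other Leydig cells. The score that chose the cells came from these same libraries, so differences between kallikrein-high and other Leydig cells are descriptions and carry no test.

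Tissue kallikreins are secreted serine proteases. KLK1 itself cuts kininogen to release kinins, small peptides that widen vessels, and in the mouse the KLK1 gene has multiplied into the Klk1b cluster, whose members are best known from the salivary gland, where some process or bind growth factors. Klk1b21, Klk1b24 and Klk1b27 are also known from Leydig cells of the adult mouse testis. Leydig cells take up or make cholesterol, STAR brings it into the mitochondrion, and CYP11A1, the 3-beta-hydroxysteroid dehydrogenases, CYP17A1 and HSD17B3 turn it stepwise into testosterone under control of luteinizing hormone and its receptor LHCGR.

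All animals had received busulfan, an alkylating agent that depletes the germ line. The dEXO library came from mice then injected with blood exosomes, small membrane vesicles, of mice with a disturbed gut microbiota. The EXO library came from mice injected with blood exosomes of wild-type mice, and the PBS library from mice injected with saline. With 1 library per group, differences were not checked against replicates and no p-value is given. Intervals are at 95% and hold counting error alone, since UMIs of 1 library are not independent animals. The sources used here name no strain, age, dose or time, nor how many animals a library holds. The tissue is labelled testis, although the labels' extraction text names the aorta. The summed level of 7 Leydig markers that the rule does not use was 39179 CPM (UMIs per 1e6 UMIs of the summed cells) in the kallikrein-high cells of dEXO, 49839 CPM in EXO and 35751 CPM in PBS, against 1468, 3767 and 4978 CPM in cells with under 0.5% of steroid enzyme UMIs.

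The 4 genes of the score lie on the plus strand of chromosome 7, within the family's cluster of 14 genes between 43950664 and 44229618 (GRCm38). Klk1b27 (ENSMUSG00000063177) spans 44052290 to 44056712, Klk1b21 (ENSMUSG00000066516) 44102328 to 44106583, Klk1b22 (ENSMUSG00000060177) 44112673 to 44116922, and Klk1b24 (ENSMUSG00000063713) 44188236 to 44192455. Their promoters are shown because these 4 genes make up the score, which by itself makes them high in the chosen cells. Each runs 250 bases before to 50 bases after the RefSeq start on GRCm38.p6, 5′ to 3′: chr7:44102042-44102341 for Klk1b21, chr7:44112423-44112722 for Klk1b22, chr7:44187986-44188285 for Klk1b24 and chr7:44052040-44052339 for Klk1b27. Capitals mark AGGTCA on either strand (here always as TGACCT), a hexamer that NR5A1 and other nuclear receptors bind, and the TATA-like box TTTAAA.
Klk1b21: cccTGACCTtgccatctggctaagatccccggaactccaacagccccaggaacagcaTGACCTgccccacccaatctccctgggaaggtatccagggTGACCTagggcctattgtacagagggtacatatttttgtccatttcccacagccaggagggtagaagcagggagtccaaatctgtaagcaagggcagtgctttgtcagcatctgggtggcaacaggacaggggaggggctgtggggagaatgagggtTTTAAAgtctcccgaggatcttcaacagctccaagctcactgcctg
Klk1b22: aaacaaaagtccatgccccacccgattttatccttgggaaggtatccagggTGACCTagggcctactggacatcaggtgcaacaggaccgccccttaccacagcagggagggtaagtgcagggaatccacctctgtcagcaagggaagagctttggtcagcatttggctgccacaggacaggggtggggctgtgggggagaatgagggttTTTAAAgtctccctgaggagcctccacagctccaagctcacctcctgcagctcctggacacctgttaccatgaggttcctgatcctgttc
Klk1b24: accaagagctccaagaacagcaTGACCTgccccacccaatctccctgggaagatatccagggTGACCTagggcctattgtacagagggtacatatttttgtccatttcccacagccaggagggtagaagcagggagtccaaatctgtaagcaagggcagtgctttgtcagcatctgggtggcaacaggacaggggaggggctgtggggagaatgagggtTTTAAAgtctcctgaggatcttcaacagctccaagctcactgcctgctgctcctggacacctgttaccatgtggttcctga
Klk1b27: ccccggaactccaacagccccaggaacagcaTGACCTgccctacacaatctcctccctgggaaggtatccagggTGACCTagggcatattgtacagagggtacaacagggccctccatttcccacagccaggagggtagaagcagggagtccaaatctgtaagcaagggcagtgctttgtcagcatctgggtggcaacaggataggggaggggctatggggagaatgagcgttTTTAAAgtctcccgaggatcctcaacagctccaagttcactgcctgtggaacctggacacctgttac

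AGGTCA was found in 4 of 4 windows, with 3 copies for Klk1b21, 1 for Klk1b22 and 2 each for Klk1b24 and Klk1b27. It was in 11 of the 14 windows of the family and in 16.3% of 32851 mouse promoter windows of the same length. TTTAAA was in 4 of 4, in 13 of 14 and in 13.2% of all windows, and it lay 40 bases upstream of the start in Klk1b22, 31 in Klk1b24 and 17 in Klk1b27, but 4 bases past the listed start in Klk1b21. TGTTCT, which the androgen receptor binds, was in 1 of 4 and in 19.0% of all windows, and TGACG, a part of the cAMP response element, in 0 of 4 and in 20.8%. All were searched on both strands and none overlapped another. The windows of Klk1b21 and Klk1b24 were 97.7% identical over 265 aligned bases, while Klk1b22 differed most, at 80.7% identity with Klk1b27.

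Kallikrein-high cells were most frequent in the PBS library. They were 374 of 1887 Leydig cells in dEXO (19.8%, exact Clopper-Pearson interval 18.0 to 21.7), 643 of 2032 in EXO (31.6%, 29.6 to 33.7) and 847 of 1672 in PBS (50.7%, 48.2 to 53.1). The score was a range with no gap at the limit of 31.6: the lowest member scored 31.638 and the highest cell left out 31.631, and 107 dEXO, 150 EXO and 116 PBS cells lay within 10% of it. Within the kallikrein-high cells the median score was 45.5 in dEXO, 49.5 in EXO and 61.7 in PBS, and the highest cell reached 203, 287 and 380. The other Leydig cells had medians of 9.35, 8.51 and 10.3, and only 91 dEXO, 75 EXO and 15 PBS Leydig cells had none of these UMIs.

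Depth differed between the libraries and moved with the score. Kallikrein-high cells had a median of 17176 UMIs in dEXO, 20875 in EXO and 36110 in PBS, against 13891, 16970 and 29397 in the other Leydig cells. Within each library the share of kallikrein-high cells was higher among deep cells: 28.0% in the deepest and 14.2% in the shallowest 1 in 4 of dEXO Leydig cells, 42.7% and 17.7% in EXO, 66.3% and 35.4% in PBS. The place of PBS in the order of the libraries depended on depth, while dEXO lay below EXO in each of 6 depth ranges. The intervals of dEXO and EXO were apart at 20000 to 25000 and 30000 to 40000 UMIs and overlapped in the other ranges. Among cells of 15000 to 20000 UMIs the shares were 26.8% in dEXO, 29.2% in EXO and 23.8% in PBS, and among those of 20000 to 25000 UMIs they were 25.9%, 46.5% and 27.6%. Among cells of 30000 to 40000 UMIs they were 25%, 45.1% and 54.8%, and among the shallow cells of 2000 to 10000 UMIs 14.6%, 22.1% and 55.4%. Cells of 10000 to 15000 UMIs gave 13.0%, 14.97% and 50%, and cells of 25000 to 30000 UMIs 30.5%, 38.1% and 39.4%. PBS was thus the highest in 4 of the 6 ranges, but its interval overlapped that of EXO at 25000 to 30000 and at 30000 to 40000 UMIs. The ranges leave out cells of 40000 UMIs or more. The deepest 1 in 4 Leydig cells had a median of 51366.5 UMIs in PBS, against 24979.5 in dEXO and 27981.5 in EXO. With every cell thinned to 2000 UMIs and ranked again, the shares were 23.5%, 35.3% and 52.4%. Cells tied at the limit were all kept there, which gave 2036 cells in place of 1864 and by itself raises the shares. The PBS library had the largest share over all cells and the smallest among cells of 15000 to 20000 UMIs, where the 3 intervals overlapped, so shares and depth cannot be told apart.

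**Figure D1:**
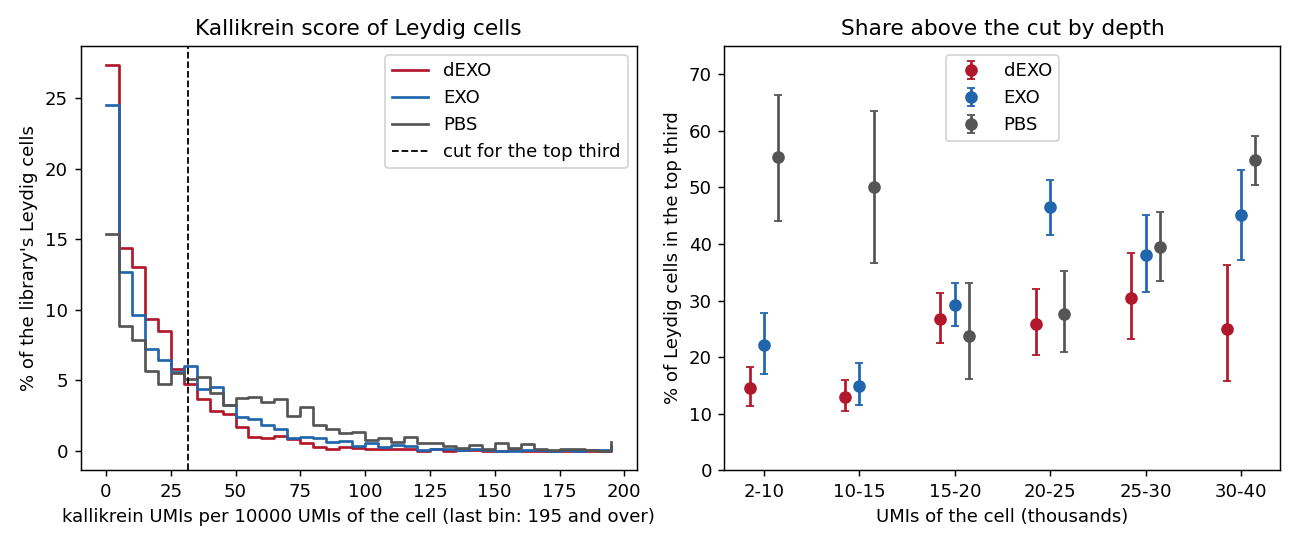
Left, the share of each library's Leydig cells (%) in bins of the kallikrein score (UMIs of the 4 genes per 10000 UMIs of the cell), with the limit of 31.6 as a dashed line. Right, the share of Leydig cells above the limit (%, with 95% exact binomial intervals for counting error) in windows of UMIs per cell: between 20000 and 25000 UMIs, dEXO stood at 25.9%, EXO at 46.5% and PBS at 27.6%, while between 30000 and 40000 UMIs PBS was highest at 54.8%.

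Klk1b21 had 2008 CPM in dEXO, 2331 CPM in EXO and 2588 CPM in PBS kallikrein-high cells, against 481, 484 and 501 CPM in the other Leydig cells. Klk1b24 had 1487, 1802 and 2158 CPM in kallikrein-high cells of dEXO, EXO and PBS, against 441, 446 and 501 CPM in other Leydig cells. Klk1b27 had 1206, 1277 and 1677 CPM, against 253, 218 and 239 CPM. For these genes the kallikrein-high levels were highest in PBS and lowest in dEXO. The other Leydig cells of the 3 libraries stood close together. All of them lay below the same score limit, which by itself caps their levels, so nothing is read from this likeness. Over all Leydig cells, the genes of the score took 0.209% of UMIs in dEXO, 0.288% in EXO and 0.445% in PBS. Klk1b22, known in the salivary gland as a growth factor binding protein, had 390, 491 and 566 CPM in kallikrein-high cells, against 56.7, 66.5 and 65.2 CPM in other Leydig cells. The choice of cells fixes these differences between kallikrein-high and other Leydig cells. With cells ranked on a random 1 of 2 parts of their UMIs and the genes measured on the other part, the ratio of kallikrein-high to other Leydig cells lay between 3.16-fold for Klk1b24 in dEXO and 8.44-fold for Klk1b22 in PBS.

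The mix of the 4 kallikreins was alike in the 3 libraries. Klk1b21 gave 39.4%, 39.5% and 37.0% of the 4 genes' UMIs in kallikrein-high cells of dEXO, EXO and PBS, Klk1b24 29.2%, 30.5% and 30.9%, Klk1b27 23.7%, 21.6% and 24.0%, and Klk1b22 7.66%, 8.32% and 8.10%. In other Leydig cells the mix leaned to Klk1b24, with 35.8%, 36.8% and 38.4%, and away from Klk1b22, with 4.61%, 5.48% and 4.99%. All 4 genes were seen together in 85.6% of kallikrein-high cells in dEXO, 93.0% in EXO and 97.5% in PBS, against 30.1%, 34.2% and 43.5% of other Leydig cells. Over all Leydig cells of a library the pairwise Spearman correlations of the 4 genes' levels ran from 0.54 to 0.80 in dEXO, 0.68 to 0.88 in EXO and 0.76 to 0.92 in PBS. Within kallikrein-high cells they ran from 0.08 to 0.36, 0.26 to 0.53 and 0.38 to 0.71, over 374, 643 and 847 cells. Kallikrein-high cells were cut on the sum of these 4 genes, which by itself changes both their joint detection and their correlations. Nothing is therefore read from these differences between the groups. The cells of a library share its depth and free RNA, and these values are given as a description.

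At least 1 UMI of the 4 genes was also found in 21.9% of dEXO, 26.0% of EXO and 38.2% of PBS cells with under 0.5% of steroid enzyme UMIs, whose median depths were 4033, 3584 and 5891 UMIs. There the 4 genes took 0.00539%, 0.0137% and 0.0329% of UMIs, against 0.509%, 0.590% and 0.699% in kallikrein-high cells and 0.123%, 0.121% and 0.131% in other Leydig cells. The level in other Leydig cells was therefore above that in non-Leydig cells in each library. Paralogs of the cluster are alike at the 3′ ends that were sequenced: over the last 500 bases of the transcripts, the 4 genes were 88.3% to 93.8% identical in pairs. Of the 90-base stretches there, 10.7% of those of Klk1b21, 9.002% of Klk1b24, 5.84% of Klk1b27 and 0 of Klk1b22 occurred in another gene of the family. The sources used here do not say how reads that fit several genes were counted, so the split between these paralogs is uncertain.

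The kallikreins that were not part of the score were higher in the same cells. Of the 10 other members of the family, 5 had at least 50 UMIs over both groups of cells in every library, and all 5 were past 1.5-fold higher in kallikrein-high cells in all 3 libraries. Of all 12003 genes measured, 21 were, which is 0.175%. These 5 are paralogs of the genes that chose the cells, so nothing is read from the count. Of 411 stretches of 90 bases at the 3′ end, 0 of Klk1b8, Klk1b1, Klk1b16 and Klk1b26 occurred in another gene of the family. For Klk1, 56 of 411 did. Sharing of reads with the genes of the score was not tested. Klk1b8 had 47.7 CPM in dEXO, 124 CPM in EXO and 170 CPM in PBS kallikrein-high cells, against 6.34, 13.0 and 14.4 CPM in other Leydig cells. Klk1, the kinin-releasing enzyme, had 50.8, 105 and 194 CPM, against 15.5, 23.6 and 42.1 CPM. Both were lowest in dEXO and highest in PBS in either group of cells. Klk1b16 had 133, 160 and 177 CPM in kallikrein-high cells, against 38.9, 40.0 and 48.1 CPM in other Leydig cells. Klk1b1 had 14.4, 33.3 and 53.02 CPM, against 2.99, 5.54 and 7.56 CPM, and Klk1b26, a growth factor binding protein of the salivary gland, had 10.1, 22.5 and 35.5 CPM, against 2.07, 4.48 and 6.46 CPM. The remaining members, Klk1b3, Klk1b4, Klk1b5, Klk1b9 and Klk1b11, stayed under 12 CPM in each group. The kallikrein-related genes outside the cluster were nearly silent: of Klk4 to Klk15 and Klkb1, 10 of 13 had no UMI in any Leydig cell, and Klk15 had 2 UMIs in dEXO, 2 in EXO and 11 in PBS kallikrein-high cells.

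**Figure D2:**
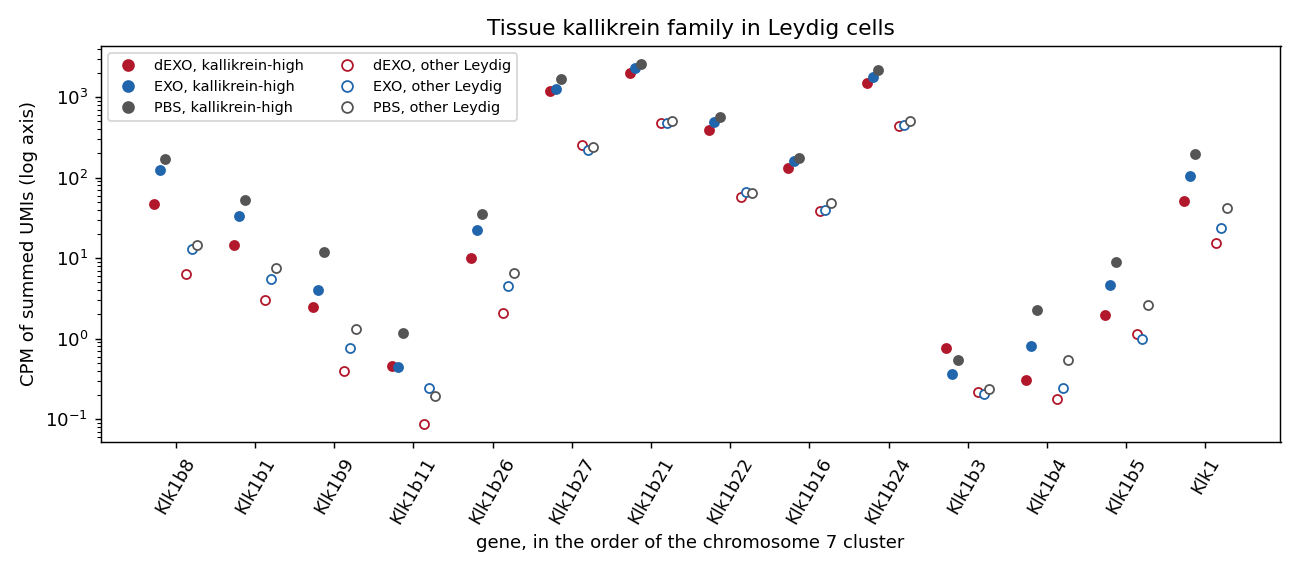
CPM (log axis) of the 14 genes of the tissue kallikrein cluster, in their order on chromosome 7, in kallikrein-high (filled) and other (open) Leydig cells of each library. Klk1b21, Klk1b24, Klk1b27 and Klk1b22 chose the cells; Klk1b16, Klk1b8, Klk1, Klk1b1 and Klk1b26 were also higher in the kallikrein-high cells of every library, as with Klk1b8 at 47.7, 124 and 170 CPM against 6.34, 13.0 and 14.4 CPM.

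Beyond the kallikreins, the genes with the clearest higher levels in kallikrein-high cells included Mia, Rarres1, Ggt1, Gnmt and Lrrn4, each past 1.5-fold in all 3 libraries, and Spint2, Eppin, Lcn2, Tesc and Apoc1, which were higher in all 3 but not past 1.5-fold in each. In all 3 libraries, 21 of 12003 genes were past 1.5-fold higher in these cells and 177 were past 1.5-fold lower, or 0.175% and 1.47%. Scaled by the median gene instead of the UMI total, the numbers were 34 and 122. A gene must pass in every library to count, so fewer libraries give more genes: without dEXO 54 were higher and 369 lower, without EXO 32 and 241, and without PBS 29 and 290. Spint2, a membrane-bound Kunitz inhibitor of serine proteases, had 233, 255 and 229 CPM in kallikrein-high cells, against 159, 165 and 133 CPM in other Leydig cells of dEXO, EXO and PBS. Eppin, which carries a WAP and a Kunitz inhibitor domain and is best known from the epididymis and sperm surface, had 154, 182 and 178 CPM in kallikrein-high cells, against 104, 124 and 118 CPM in other Leydig cells. For both inhibitors the lowest kallikrein-high value lay above the highest value of other Leydig cells. Lcn2, a secreted lipocalin that binds iron-carrying siderophores, had 34196, 31690.4 and 29335 CPM in kallikrein-high cells, against 24866, 21757 and 20856 CPM in other Leydig cells. Apoc1, an apolipoprotein of lipid particles, had 3205, 4895 and 3569 CPM, against 2387, 3233 and 1958 CPM, and Rarres1, a retinoid-responsive membrane protein, had 219, 244 and 192 CPM, against 135, 127 and 79.9 CPM. For both, the PBS library had the largest ratio, with log2 ratios of 0.43, 0.60 and 0.87 for Apoc1 and 0.70, 0.94 and 1.27 for Rarres1 in dEXO, EXO and PBS. Mia, a small secreted protein first found in melanoma, had 32.6, 32.6 and 24.9 CPM in kallikrein-high cells, against 16.6, 14.6 and 11.5 CPM in other Leydig cells. Gnmt, a methyltransferase that turns glycine into sarcosine, had 57.2, 69.1 and 58.3 CPM, against 35.9, 39.99 and 35.5 CPM, and Tesc, a calcium-binding regulator of ion exchange, had 189, 173 and 192 CPM, against 129, 115 and 122 CPM. Lrrn4 had 26.9, 25.5 and 27.1 CPM, against 16.8, 14.9 and 15.4 CPM, and Ggt1, the membrane enzyme that cuts extracellular glutathione, was scarce at 3.83, 3.83 and 4.58 CPM, against 1.28, 1.75 and 2.23 CPM.

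The genes lowest in kallikrein-high cells were led by Svs5, a seminal vesicle secretory protein, with 7.96, 2.798 and 7.68 CPM in kallikrein-high cells, against 46.3, 75.6 and 32.2 CPM in other Leydig cells. Single cells held 51.9%, 18.4% and 59.7% of its UMIs in kallikrein-high cells, and 19.8%, 10.3% and 23.2% in other Leydig cells. Chemokine genes followed: Cxcl10 had 13.5, 5.01 and 26.6 CPM in kallikrein-high cells, against 68.2, 27.8 and 69.8 CPM in other Leydig cells, and Cxcl1 23.3, 17.7 and 55.3 CPM, against 67.8, 50.1 and 98.9 CPM. Of the stress and growth-response genes, Egr1 had 80.04, 148 and 197 CPM in kallikrein-high cells, against 163, 305 and 325 CPM in other Leydig cells, Jun 269.6, 222 and 506 CPM, against 479, 381 and 788 CPM and Atf3 6.43, 7.22 and 16.6 CPM, against 16.4, 15.4 and 34.1 CPM. Each of these transcription factors was lower in the kallikrein-high cells of all 3 libraries. Socs3, a brake on cytokine signalling, had 42.2, 55.7 and 98.3 CPM, against 89.5, 106 and 162 CPM, and Myc 11.3, 14.2 and 19.5 CPM, against 21.2, 29.2 and 35.3 CPM. Cdkn1a, the cell cycle inhibitor p21, had 25.1, 49.5 and 115 CPM, against 43.01, 113 and 170 CPM. Among genes of sterol synthesis, Hmgcs1 had 316, 432 and 607 CPM in kallikrein-high cells, against 522, 720.3 and 911 CPM in other Leydig cells, and Mvd 13.2, 24.9 and 49.7 CPM, against 27.2, 44.1 and 87.8 CPM. Aebp1, a protein of the extracellular matrix, had 135, 93.4 and 148 CPM in kallikrein-high cells, against 275, 233 and 328 CPM in other Leydig cells, and the potassium channel gene Kcnk3 had 45.1, 40.1 and 29.01 CPM, against 77.3, 69.95 and 68.3 CPM. Abhd11os, named for lying opposite Abhd11, had 6.73, 12.6 and 19.5 CPM, against 15.9, 22.7 and 35.04 CPM, and the sources used here do not say whether the counting used strand.

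To describe levels along the whole score, Leydig cells of each library were divided into 10 bins of equal size by score, and the 30 bins were ranked by their mean score. The genes most like the score were Klk1b16 (Spearman 1.00 over 30 bins), Klk1b8 (0.97), Spint2 (0.96), Itm2b (0.96), Tesc (0.96) and Gnmt (0.96). Dnase2a (0.95), Fth1 (0.95), Acp5 (0.94) and Tmed3 (0.94) came next. Gnmt had 58.05, 76.1 and 78.6 CPM in the highest bin, against 19.9, 21 and 19.2 CPM in the lowest of dEXO, EXO and PBS. Dnase2a, a lysosomal nuclease, had 31.6, 36.01 and 38.4 CPM in the highest bin, against 7.42, 10.8 and 11.8 CPM in the lowest, and Acp5, a lysosomal acid phosphatase, had 15.6, 21.2 and 22.04 CPM in the highest bin, against 4.17, 2.37 and 4.904 CPM in the lowest. Fth1, the heavy chain of the iron store ferritin, moved over a narrower range, with 6216, 6223 and 6179 CPM in the highest bin, against 5203, 5143 and 5153 CPM in the lowest. The most opposite were Ptma (-0.96), Nedd4 (-0.96), Pygm (-0.96) and Nrk (-0.95). Bgn and Col3a1, a proteoglycan and a collagen of the matrix, were among them, Bgn with 17.9, 15.5 and 11.6 CPM in the highest bin, against 61.2, 89.4 and 121 CPM in the lowest and Col3a1 with 56.5, 43.6 and 35.8 CPM in the highest bin, against 146, 200.2 and 254 CPM in the lowest. Pygm, the muscle form of glycogen phosphorylase, had 8.61, 3.58 and 4.54 CPM in the highest bin, against 26.4, 26.8 and 33.2 CPM in the lowest. These genes were chosen for their correlation with the score, so their graded levels are a description and no finding about the limit. The bins of a library share its depth, and deeper cells had higher scores.

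**Figure D3:**
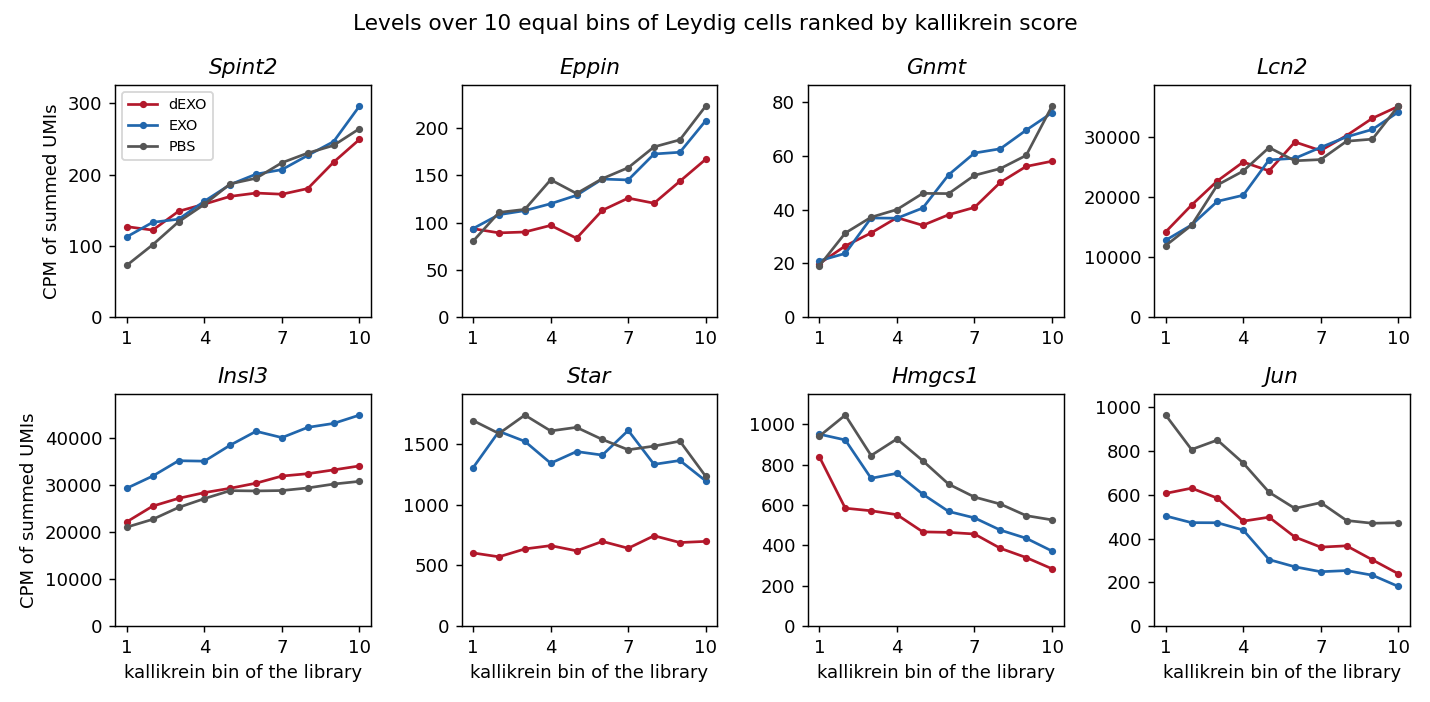
CPM of 8 genes in 10 equal bins of Leydig cells by kallikrein score (left to right, low to high) in each library, each point the sum over the cells of a bin. Spint2, Eppin, Gnmt, Lcn2 and Insl3 were higher at the high end, with Gnmt at 58.05, 76.1 and 78.6 CPM in the highest bins of dEXO, EXO and PBS, while Hmgcs1 and Jun were lower there.

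Steroid genes differed little between kallikrein-high and other Leydig cells, and not all one way. Over all 12003 genes the median log2 ratio was -0.11 and 1304 genes were higher and 5749 lower in all 3 libraries. Of the 14 steroidogenesis genes measured outside the rule, 2 were higher and 5 lower in all 3 libraries, none past 1.5-fold, with a median of -0.06 that turns to 0.05 relative to the median of all genes. Hsd17b3, which makes testosterone from androstenedione, had 1031, 1019 and 1046 CPM in kallikrein-high cells, against 906, 897 and 814 CPM in other Leydig cells of dEXO, EXO and PBS. Scarb1, the receptor that takes up cholesterol from HDL, had 171, 140 and 179.7 CPM, against 146, 124 and 156 CPM. These were the 2 higher genes. Hsd3b1, a 3-beta-hydroxysteroid dehydrogenase, had 1581, 971 and 718 CPM in kallikrein-high cells, against 2089, 1424 and 876 CPM in other Leydig cells. It was lower in every library, and so was Lhcgr, the receptor of luteinizing hormone, with 415, 393 and 369 CPM, against 450, 430 and 436 CPM. Srd5a1, the 5-alpha-reductase of immature Leydig cells, had 13.5, 14.1 and 24.6 CPM, against 18.4, 21.4 and 42.04 CPM. Star had 694, 1304 and 1449 CPM, against 651, 1467 and 1647 CPM, higher in dEXO and lower in EXO and PBS. Of the rule's own enzymes, Cyp17a1 had 7376, 7031 and 9105 CPM in kallikrein-high cells, against 6504, 6060.5 and 7999 CPM in other Leydig cells, Cyp11a1 4416, 3413 and 3800.3 CPM, against 3730.3, 2866 and 2827 CPM, and Hsd3b6 1595, 1609.9 and 1673 CPM, against 1617, 1678 and 1963 CPM.

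Genes of adult Leydig cells were split. Of 12 adult maturation genes measured outside the rule, 6 were higher and 5 lower in all 3 libraries, with a median of -0.01, or 0.11 relative to all genes. Insl3, the Leydig hormone of testis descent and germ cell survival, had 33702, 43481 and 29670.0 CPM in kallikrein-high cells, against 28931, 36281 and 25261 CPM in other Leydig cells of dEXO, EXO and PBS. Ptgds, a prostaglandin D synthase, had 28443, 27795 and 17086 CPM, against 23849, 21428 and 11497 CPM, and Sult1e1, the estrogen sulfotransferase, 1867, 1815 and 1167 CPM, against 1532, 1371 and 636 CPM. All 3 were higher in each library. Inha, the inhibin alpha subunit, was lower with 196, 174 and 155 CPM, against 255, 249.9 and 249 CPM, and the transcription factor gene Gata6 had 7.19, 8.47 and 5.56 CPM, against 11.4, 17.9 and 15.7 CPM. Of 10 progenitor and immature genes measured, 8 were lower and none higher, with a median of -0.34. Pdgfra, a receptor of Leydig progenitors, had 104, 72.01 and 65.2 CPM in kallikrein-high cells, against 144, 107 and 101 CPM in other Leydig cells, and Tcf21 11.02, 16.9 and 18.6 CPM, against 19.2, 29.5 and 47.1 CPM. Of 17 secreted Leydig products, 4 were higher and 9 lower, a share of lower genes near that of all genes (5749 of 12003). Their median was -0.13. Pdgfra and Tcf21 also mark stroma: of 7 stroma markers measured, 5 were lower and none higher, and their summed level was 602, 484 and 485 CPM in kallikrein-high cells, against 748, 813 and 885 CPM in other Leydig cells and 2332, 5695 and 9561 CPM in non-Leydig cells. The part of stromal RNA in these differences was not tested.

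Cholesterol synthesis genes were lower in kallikrein-high cells. Of 19 measured, 18 were lower and none higher in all 3 libraries, 2 of them past 1.5-fold, against 1.47% of all genes, and the medians were -0.32, -0.36 and -0.50 in dEXO, EXO and PBS. The median of -0.39 was -0.28 relative to all genes. Idi1, an isomerase of the pathway, had 89.4, 163 and 217 CPM in kallikrein-high cells, against 132, 258 and 323 CPM in other Leydig cells. It was lowest in dEXO and highest in PBS in either group of cells. In the related uptake and storage list, 1 of 15 genes was higher and 10 were lower, the median being -0.16. Insig1, which holds back sterol synthesis, had 48.4, 80.6 and 126 CPM in kallikrein-high cells, against 74.4, 146 and 194 CPM in other Leydig cells.

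Immediate early genes, which switch on within minutes of a stimulus, were all lower in kallikrein-high cells. Of 20 measured, 20 were lower in all 3 libraries and 11 were past 1.5-fold, against 1.47% of all genes. The medians were -0.83, -0.78 and -0.64 in dEXO, EXO and PBS. Fos had 259, 286 and 485 CPM in kallikrein-high cells, against 535, 585 and 758 CPM in other Leydig cells, and Fosb 28.2, 31.4 and 75.9 CPM, against 77.9, 76.3 and 146 CPM. Of 10 inflammatory and NF-kB target genes, 7 were lower and 2 higher, the median being -0.50. Of the 10, 5 were past 1.5-fold lower, against 1.47% of all genes. Nfkbia, the inhibitor that NF-kB induces, had 52.8, 26.6 and 67.1 CPM, against 98.1, 49.7 and 110.1 CPM. Of 14 p53 targets, 14 were lower, the median being -0.34, and Phlda3 had 11.5, 16.4 and 30.2 CPM, against 22.2, 32.2 and 52.1 CPM. Of 22 interferon response genes, 12 were lower and 1 higher, a share of lower genes near that of all genes (5749 of 12003), with medians of -0.30, -0.47 and -0.11. Ifi27l2a had 28.5, 19.1 and 29.4 CPM in kallikrein-high cells, against 56.8, 48.6 and 55.4 CPM in other Leydig cells. Of 16 heat shock genes, 14 were lower and none higher, with a median of -0.17, and of 17 LH and cAMP signalling genes 12 were lower and none higher, with a median of -0.17. Relative to the median of all genes these last 2 medians were -0.06 and -0.06. Mitochondrial transcripts took a median of 3.35%, 2.35% and 3.62% of UMIs in kallikrein-high cells, against 3.85%, 2.86% and 3.76% in other Leydig cells, and the kallikrein-high cells were the deeper ones. Among cells of 15000 to 25000 UMIs the immediate early median was -0.72. That range held 168 kallikrein-high cells in dEXO, 367 in EXO and 70 in PBS. The part of cell quality in these differences was not tested.

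Respiratory chain and glutathione genes were slightly higher. Over all 12003 genes, 1304 were higher and 5749 lower in all 3 libraries. Of 44 oxidative phosphorylation genes, 29 were higher and 5 lower in all 3. Their median was 0.06, or 0.17 relative to all genes, and none of the 44 was past 1.5-fold. Cox6a1, a cytochrome oxidase subunit, had 1249, 1211 and 1289 CPM in kallikrein-high cells, against 1066, 1040.2 and 1089 CPM in other Leydig cells. Of 30 glutathione and antioxidant genes, 19 were higher and 2 lower, the median being 0.09, and none was past 1.5-fold. Gstm1, a glutathione transferase, had 13970.3, 13324 and 12756 CPM, against 11739, 10870.4 and 9667 CPM; its close paralogs share sequence, so its own level is uncertain. Of 26 genes of endoplasmic reticulum folding and secretion, 6 were higher and 15 lower, the median being -0.07 that turns to 0.05 relative to all genes. The kinin system list holds kallikrein substrates and inhibitors. Of its 12 measured genes, 3 were higher and 5 lower, the median being -0.31 that turns to 0.0086 without dEXO. Besides Spint2, Serping1, the C1 inhibitor that also blocks plasma kallikrein, had 312, 274 and 292 CPM in kallikrein-high cells, against 423, 392 and 450.3 CPM in other Leydig cells, and Serpina3n, a serine protease inhibitor of the acute phase, had 59.7, 69.6 and 157 CPM, against 87.9, 108 and 275 CPM.

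**Figure D4:**
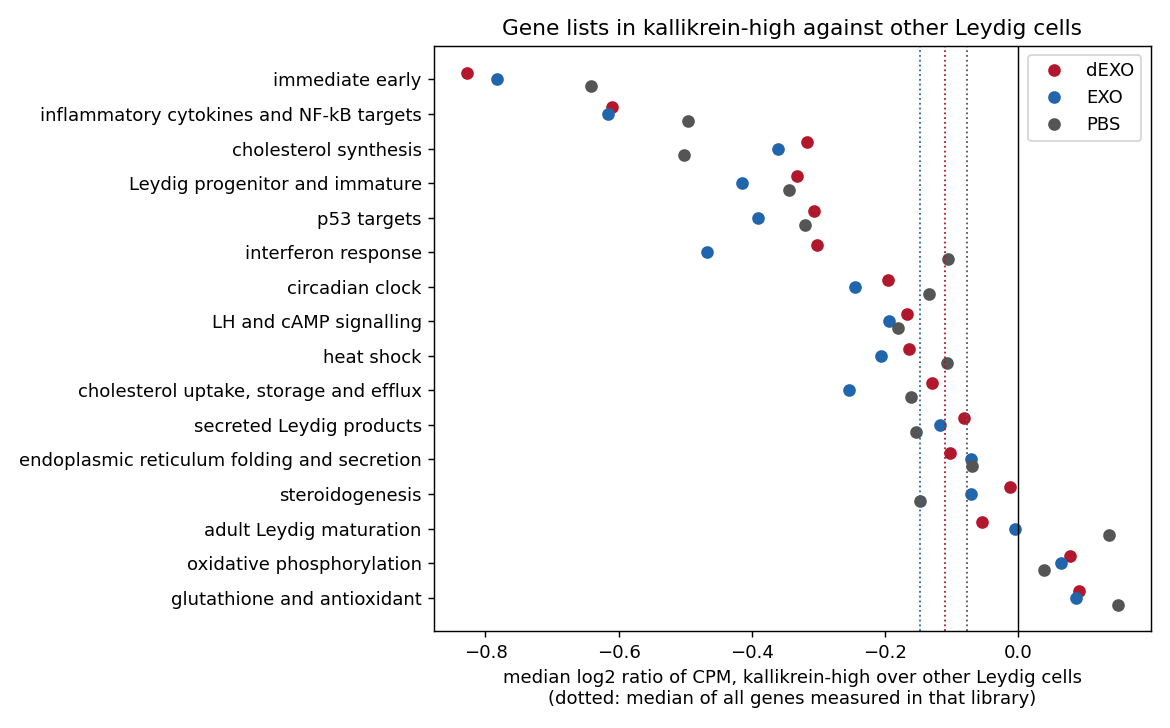
Median log2 ratio of kallikrein-high over other Leydig cells for 16 gene lists in each library, with the median of all genes of that library as a dotted line (-0.11 in dEXO, -0.15 in EXO and -0.08 in PBS). Immediate early genes lay furthest below the lines at -0.83, -0.78 and -0.64, and glutathione and respiratory chain genes lay above them.

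Kallikrein-high cells were then compared between libraries, each pair sharing a library with the next, so that the 3 comparisons are not independent. Medians of all genes were -0.02 for EXO over PBS, 0.04 for dEXO over PBS and 0.07 for dEXO over EXO. Summed over cells of every depth, the measured kallikreins outside the score were lower in dEXO and EXO than in PBS. For EXO over PBS, 8 of 8 measured were lower and 6 past 1.5-fold, with 5.24% of 12502 genes past it in that direction and 6.91% past it upward. For dEXO over PBS, 8 of 8 were lower and 7 past 1.5-fold, with 6.25% of 12330 genes lower and 13.2% higher. For dEXO over EXO, 7 of 7 were lower and 6 past 1.5-fold, with 2.73% of 11260 genes lower and 9.37% higher. These kallikreins are paralogs of the genes that chose the cells. The median score of the chosen cells was 45.5 in dEXO, 49.5 in EXO and 61.7 in PBS. A gene was measured by its UMIs summed over both libraries. Kallikrein-high cells held 6534586 UMIs in dEXO, 13582285 in EXO and 31646917 in PBS. Scarce genes thus passed more easily when high in the larger library. The choice of cells and this filter lean the same way, so these gene counts and the list medians are descriptions. The log2 ratios of Klk1 were -0.89 for EXO over PBS, -1.93 for dEXO over PBS and -1.05 for dEXO over EXO, and those of Klk1b8 were -0.45 (-0.53 to -0.37), -1.83 and -1.38 (-1.56 to -1.20). Klk1b16 differed less, with -0.14, -0.41 and -0.27. The other Leydig cells gave -0.84, -1.44 and -0.60 for Klk1. The list median was -0.78 for EXO over PBS, -1.91 for dEXO over PBS and -1.15 for dEXO over EXO. Among cells of 15000 to 25000 UMIs it was -0.07, -1.19 and -1.16, so at that depth EXO and PBS stood close together and dEXO below both. At that depth Klk1b8 and Klk1b16 turned to 0.58 and 0.045 for EXO over PBS, while Klk1 had -0.55. For dEXO over PBS, Klk1 had -1.71, Klk1b8 -0.72 and Klk1b16 -0.15 there.

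Nr4a1, Sik1, Rgs2 and Amotl2 were higher in EXO than in PBS and in dEXO. Nr4a1, an orphan nuclear receptor induced by luteinizing hormone, had 7.65, 167 and 16.97 CPM in kallikrein-high cells of dEXO, EXO and PBS, with a log2 ratio of 3.30 (3.16 to 3.43) for EXO over PBS. Sik1, a kinase of cAMP signalling, had 0.765, 40.4 and 3.48 CPM, Rgs2, a regulator of G protein signalling, 117, 284 and 50.4 CPM, and Amotl2, a junction protein, 18.4, 153 and 29.5 CPM. EXO stood above both other libraries for each. Other Leydig cells showed the same order, with 13.03, 256 and 26.5 CPM for Nr4a1 and 1.63, 58.3 and 4.23 CPM for Sik1. As a whole, the LH and cAMP list had 13 of 19 genes higher in EXO than in PBS and a median of 0.09, with 5804 of 12502 genes higher overall. Most immediate early genes went the other way from Nr4a1: 19 of 21 were lower in EXO and 13 past 1.5-fold, against 5.24% of all genes, with a median of -0.64. Other Leydig cells gave a median of -0.37. The chemokine gene Ccl8 had 14.7, 7.29 and 1.71 CPM, and single cells held 54.2%, 25.3% and 35.2% of its UMIs.

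Genes lower in EXO than in PBS included Aqp5, a water channel, with 2.602, 8.03 and 40.7 CPM in kallikrein-high cells of dEXO, EXO and PBS, and Ly6d, a surface protein, with 56.9, 31.9 and 126 CPM. Neat1, the RNA scaffold of nuclear paraspeckles, had 294, 217 and 696 CPM. For Aqp5, dEXO was lowest and PBS highest, while EXO was lowest for Ly6d and Neat1. Synpo, an actin-associated protein, had 1.07, 4.42 and 17.8 CPM, Flrt1, a membrane protein of cell adhesion, 2.75, 0.884 and 9.54 CPM, and Nipal1, a magnesium transporter, 0.459, 0.442 and 2.97 CPM. Myh6, a cardiac myosin, had 14.8, 7.51 and 28.6 CPM, and Slmapos2, which lies opposite Slmap, 1.68, 0.442 and 3.73 CPM. The immunoglobulin genes Ighg3, Igkc and Jchain also headed the list of genes higher in EXO. They came from 1 cell, which held 99.7% of 906 Ighg3 UMIs, 99.2% of 3132 Igkc UMIs and 98.3% of 346 Jchain UMIs. Log2 ratios of EXO over PBS were 8.59 for Igkc and 6.33 for Jchain, and Ighg3 had no UMI in PBS.

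Cholesterol synthesis genes were lower after both exosome injections. All 19 cholesterol synthesis genes were lower in EXO than in PBS, where 6698 of 12502 genes were lower. Of the 19, 4 were past 1.5-fold, against 5.24% of all genes, with a median of -0.49. All 19 were lower in dEXO than in PBS, where 5541 of 12330 genes were lower. Of the 19, 13 were past 1.5-fold, against 6.25% of all genes, with a median of -0.72. Other Leydig cells gave -0.49 and -0.80, and cells of 15000 to 25000 UMIs -0.57 and -0.86. For dEXO over PBS the log2 ratio was -1.92 (-2.25 to -1.60) for Mvd. Abca1, which exports cholesterol, was higher, at 1.19 for EXO over PBS and 1.13 for dEXO over PBS. Between dEXO and EXO, 15 of 19 synthesis genes were lower in dEXO, 4 past 1.5-fold, against 2.73% of all genes, with a median of -0.18. Star was lower in dEXO than in either other library, with -1.06 (-1.11 to -1.02) against PBS and -0.91 (-0.96 to -0.86) against EXO, while Hsd3b1 was higher, with 1.14 (1.11 to 1.17) against PBS. Nr0b1, a repressor of steroid genes, was also higher in dEXO than in PBS, at 1.39 (1.07 to 1.69). Other Leydig cells gave -1.34 for Star, 1.25 for Hsd3b1 and 1.40 for Nr0b1 in dEXO over PBS. Among kallikrein-high cells of 15000 to 25000 UMIs these were -0.42 for Star, 1.17 for Hsd3b1 and 0.92 for Nr0b1.

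Interferon response genes were higher in dEXO than in PBS: 18 of 22 were higher and 9 past 1.5-fold, against 13.2% of all genes, with a median of 0.41. Against EXO, 18 of 20 were higher and 5 past 1.5-fold, against 9.37% of all genes, with a median of 0.49. EXO over PBS had 10 of 22 higher and a median of -0.04. Over all genes in kallikrein-high cells, 6789 of 12330 were higher for dEXO over PBS. For dEXO over EXO 6937 of 11260 were higher, and for EXO over PBS 5804 of 12502. Other Leydig cells had 18 of 22 higher and 11 past 1.5-fold for dEXO over PBS, with a median of 0.62. Of all 13596 genes measured in that comparison, 8303 were higher and 2469 past 1.5-fold higher. For EXO over PBS, other Leydig cells had 17 of 22 higher, with a median of 0.24, where 7388 of 13212 genes were higher. Iigp1, an interferon-induced GTPase, had 63.05, 16.4 and 15.2 CPM in kallikrein-high cells of dEXO, EXO and PBS. For this gene, dEXO was above the other libraries. Among cells of 15000 to 25000 UMIs the medians were 0.13 for dEXO over PBS and 0.56 for dEXO over EXO. The acute phase gene Saa3 had 49.6, 3.31 and 2.46 CPM, and in dEXO it was found in 42 of 374 cells, 1 of which held 31.2% of its UMIs. Immediate early genes were lower in dEXO than in PBS, 19 of 20 of them and 15 past 1.5-fold, with a median of -0.86. Of 16 p53 targets, 12 were lower and 8 past 1.5-fold, with a median of -0.60, where 6.25% of all genes were past 1.5-fold lower, and Cdkn1a had 25.1, 49.5 and 115 CPM.

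Other genes that set dEXO apart from PBS were Ccdc28b, with 235, 166 and 82.6 CPM in kallikrein-high cells of dEXO, EXO and PBS, and Zbtb16, a transcription factor also used as a spermatogonial marker, with 27.1, 22.5 and 7.93 CPM. Pdp1, a phosphatase that switches on pyruvate dehydrogenase, had 35.04, 19.6 and 9.796 CPM, and Cyp21a1, the steroid 21-hydroxylase of the adrenal, 25.4, 15.6 and 7.84 CPM. Both were highest in dEXO. The transcription factor gene Gata1 had 10.3, 5.96 and 2.28 CPM. Genes lower in dEXO were Alas1, the first enzyme of heme synthesis, with 181, 519 and 719.9 CPM, and Mfsd2a, a lipid transporter, with 0.765, 33.4 and 14.3 CPM. Scg5, a chaperone of a prohormone convertase, had 1.22, 7.36 and 18.5 CPM, Sds, which breaks down serine, 2.45, 8.76 and 15.6 CPM, and Heyl, a Notch target, 0.918, 8.47 and 9.54 CPM. Between dEXO and EXO, Txnip, a glucose-responsive inhibitor of thioredoxin, was higher in dEXO, with 589, 158 and 314 CPM, as was the clock gene Nr1d1 with 59.8, 21.6 and 21.8 CPM. G0s2, an inhibitor of lipolysis, had 217, 77.2 and 120.3 CPM, Angptl4, an inhibitor of lipoprotein lipase, 59.4, 20.7 and 46.1 CPM, Trib1 11.8, 2.65 and 10.3 CPM, and Gem, a small GTPase, 19.1, 6.11 and 7.43 CPM. Bhlhe40, a clock repressor, was lower in dEXO, with 14.2, 99.2 and 51.8 CPM.

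RNA of germ cells moved with the same groups. The summed level of 7 spermatocyte markers was 305, 130 and 78.2 CPM in kallikrein-high cells of dEXO, EXO and PBS, against 316, 141 and 83.0 CPM in other Leydig cells and 7481, 5241 and 2412 CPM in non-Leydig cells. All 7 were higher in dEXO than in PBS in kallikrein-high cells, where 6789 of 12330 genes were higher. Their median log2 ratio was 2.86, and 1.06 among cells of 15000 to 25000 UMIs. The 8 spermatid markers summed to 75.4, 34.2 and 26.9 CPM, and the 10 macrophage markers to 81.3, 56.2 and 55.3 CPM in kallikrein-high cells. None of the spermatocyte or spermatid markers was at 0 in any library, Ptprc, which the rule excludes, was at 0, and the 7 endothelial markers, 3 of them at 0 in dEXO, summed to 12.5, 13.8 and 11.1 CPM. Of the Sertoli list, Defb19 and Clu were high in Leydig cells too, so the list's sum does not mark Sertoli RNA there, and the defining gene Sox9 had 2.602, 0.589 and 0.758 CPM in kallikrein-high cells. The part of free RNA and of doublets in the differences between libraries was not tested. The kallikrein-high cells above 2 times their library's median UMIs numbered 28, 30 and 53, and those whose barcode sequence also occurred in another library 0, 3 and 4.

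**Figure D5:**
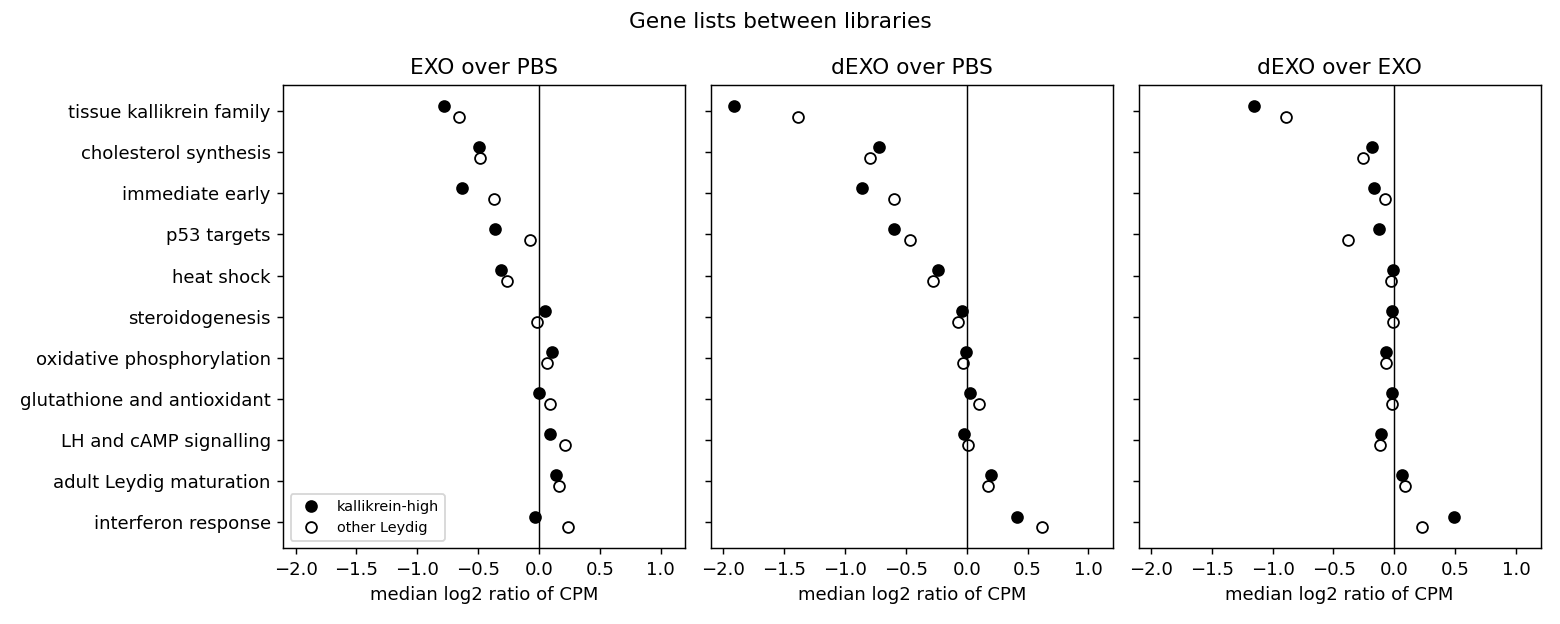
Median log2 ratios of 11 gene lists for EXO over PBS, dEXO over PBS and dEXO over EXO, in kallikrein-high (filled) and other (open) Leydig cells. Cholesterol synthesis lay at -0.49 and -0.72 against PBS in kallikrein-high cells, immediate early genes at -0.64 and -0.86, and the interferon list at 0.41 for dEXO over PBS and 0.49 for dEXO over EXO.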

How the data were processed

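RNA of single cells was measured in 3 testis libraries with 10x 3' V3 chemistry, per the labels' protocols. The deposited values are raw UMI counts per gene and barcode made with Cell Ranger 5.0.1, per the file headers, and Cell Ranger, Seurat and GRCm38 are named in the submitters' processing notes. The barcodes numbered 9760 in dEXO, 10228 in EXO and 5514 in PBS, with 96655663, 91787154 and 97253862 UMIs. All 55450 gene IDs matched the GRCm38 annotation.

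Leydig cells and the kallikrein score were taken by the rule given in the report. No doublet caller was run, and a UMI count above 2 times a library's median was used in its place as an alternative. UMIs were summed over the cells of a group and divided by the group's total. A gene was measured where both groups together had at least 50 UMIs, and called past 1.5-fold by size alone. Intervals of ratios are exact conditional binomial intervals at 95%, and a fold against 0 UMIs was taken against a floor of 3. The ratio calculation was tested on simulated data. With 1 library per group there was no test between samples.

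Named genes were the family, the rule's genes, the 15 highest and 15 lowest genes between kallikrein-high and other Leydig cells, the 8 highest and 8 lowest per pair of libraries by the interval bound nearest 0, up to 4 genes of each list with the largest ratios, 5 Leydig genes in every library and the 10 genes most like the score. The genes of the most opposite trend and some list members given as examples were picked after their values were seen. Ribosomal, mitochondrial, haemoglobin and predicted genes were left out. Some genes that the rule names are not reported here. The members and lists were chosen with earlier results of these data known. Sums and intervals were computed with pandas 2.3.3, numpy 2.4.6 and scipy 1.17.1 in Python 3.11.15, alignments with biopython 1.88 and figures with matplotlib 3.10.9.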

Additional observations from a re-analysis of the deposited data

Results flagged for a closer look

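The following differences went one way in kallikrein-high cells and the other way in other Leydig cells, or one way in one library and the other way in another. None of the opposite directions was tested. For EXO over PBS, Igkc had a log2 ratio of 8.59 in kallikrein-high and -1.77 in other Leydig cells, and Jchain 6.33 and -2.24. In each case 1 cell carried nearly all UMIs: 99.2% of the Igkc UMIs of the EXO kallikrein-high cells, and 99.9% of those of the other PBS Leydig cells. The inflammatory and NF-kB target list had a median of 0.11 for EXO over PBS in kallikrein-high cells and -0.50 in other Leydig cells, but -0.56 in kallikrein-high cells of 15000 to 25000 UMIs and -0.070 to -0.56 over the 6 settings in which it turned. The secreted Leydig products had 0.18 for dEXO over PBS, against -0.10, and -0.33 at 15000 to 25000 UMIs. The stroma markers had 0.30 for dEXO over PBS, against -0.30, and 0.38 for dEXO over EXO, against -0.30. In kallikrein-high cells of 15000 to 25000 UMIs they had -0.60 for dEXO over PBS and 0.22 for dEXO over EXO. Between kallikrein-high and other Leydig cells, the kinin system list had its lowest median in EXO, at -0.33, and its highest in PBS, at 0.25. The spermatogonia markers had theirs in dEXO, at -0.34, and in PBS, at 0.12.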

How the results depend on the processing

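The settings numbered 25, of which at most 18 bore on any 1 gene. Of 1432 list medians 26 turned, and 203 others moved by more than 0.1 in log2. A turn was counted only where the main value was at least 0.1 in size, so smaller values could change sign uncounted. Steroidogenesis ran from -0.10 to 0.07 over the settings for kallikrein-high over other Leydig cells. The interferon list ran from -0.22 to 0.11 for EXO over PBS. Of the shares, 13 moved out of their interval and 29 did not. Of 2013 gene ratios 572 moved by more than 0.1 without turning, and 3 turned. The 3 gene ratios that turned were EXO over PBS at 15000 to 25000 UMIs. They were 0.58 for Klk1b8, 0.045 for Klk1b16 and 0.30 for Star, against -0.45, -0.14 and -0.15 over all kallikrein-high cells. Immediate early genes stayed between -1.02 and -0.64 for kallikrein-high over other Leydig cells, and cholesterol synthesis between -0.58 and -0.27. The share moved most with the size of the top fraction in dEXO and EXO, and with depth in PBS. Settings that took only cells of 15000 to 25000 UMIs or left out cells with plasma cell UMIs were chosen after seeing the data. No paired analysis was possible because each group has 1 library. Apart from what a setting changes by itself, the cause of the following changes was not tested.

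The shares of kallikrein-high cells in dEXO, EXO and PBS were 12.8%, 23.0% and 41.3% with the top 1 in 4, 38.6%, 48.7% and 64.5% with the top 1 in 2, and 26.5%, 36.5% and 26.1% at 15000 to 25000 UMIs. Ranked within libraries they were 33.3% in dEXO and 33.3% in PBS, which that ranking fixes in advance. Thinned to 2000 UMIs they were 23.5% in dEXO and 35.3% in EXO, with 2036 cells chosen because ties at the limit were kept. Genes higher and lower in kallikrein-high cells in all 3 libraries numbered 8 and 78 at 15000 to 25000 UMIs, 9 and 58 thinned, 50 and 335 against the lowest-scoring 1 in 3, and 34 and 291 with at least 20 UMIs. They numbered 11 and 77 with at least 200 UMIs, 6 and 36 at 2-fold, and 34 higher with the median gene as scale. Ranked on a random 1 of 2 parts of the UMIs, 108 were lower. Leaving out 1 library gave 29 to 54 higher and 241 to 369 lower. Settings that change the cells, libraries, UMIs or UMI minimum also change how many genes are measured, 12003 in the main setting. Those numbers are not given, so a lower count is not read as fewer differences.

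Between libraries, with at least 20 UMIs, 1630 genes were higher and 1106 lower in EXO over PBS, 2708 and 1183 in dEXO over PBS, and 2012 and 528 in dEXO over EXO. With at least 200 UMIs these were 259 and 315, 532 and 420, and 203 and 131, and at 2-fold 326 and 225, 848 and 325, and 525 and 109. Thinned, they were 268 and 339, 391 and 393, and 258 higher for dEXO over EXO. Ranked on 1 of 2 parts, 566, 1065 and 656 were higher, and at 15000 to 25000 UMIs 603 for dEXO over PBS and 676 for dEXO over EXO. Except at 2-fold, the number of genes measured changed with these settings too and is not given.

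List medians of at least 0.1 in size that turned were as follows. The inflammatory list for EXO over PBS was -0.17 ranked within libraries, -0.22 with the top 1 in 4, -0.16 without cells above 2 times the median UMIs, -0.56 at 15000 to 25000 UMIs, -0.54 thinned and -0.070 ranked on 1 of 2 parts, and for dEXO over PBS 0.14 within libraries. Secreted products for dEXO over PBS were -0.030 with the top 1 in 4, -0.050 with the top 1 in 2, -0.33 at 15000 to 25000 UMIs and -0.016 thinned. Immediate early genes for dEXO over EXO were 0.058 within libraries. Macrophage markers for dEXO over PBS were -0.12 with the top 1 in 4. For kallikrein-high over other Leydig cells, Sertoli markers were 0.033 without cells above 2 times the median UMIs, 0.074 at 15000 to 25000 UMIs, 0.12 against the lowest-scoring cells and 0.14 thinned, and the kinin list was 0.048 thinned and 0.0086 without dEXO. At 15000 to 25000 UMIs, EXO over PBS gave -0.10 for the kinin list, -0.42 for progenitor genes and -0.62 for spermatid markers, dEXO over PBS -0.33 for progenitor genes and -0.60 for stroma, and dEXO over EXO -0.98 for macrophages. Sertoli markers for dEXO over EXO were -0.062 thinned.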
